A study of Mus musculus with 6 samples.

Results

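The genes described here build and supply the DNA replication fork, and they were taken as 45 listed symbols for genes of origin licensing, the helicase, the polymerases, the sliding clamp, deoxynucleotide synthesis and chromatin assembly. All 45 are among the 14416 genes of the count table, and all 45 had enough reads to be tested. They were followed in lung innate lymphoid cells (ILCs), which are lymphocytes without rearranged antigen receptors, sorted as Lin-Thy1.2+ cells from C57BL/6J mice. Wild-type mice (WT) gave 3 of the samples, and mice that lack Rbm3 (RBM3KO), which encodes a cold-inducible RNA-binding protein, gave the other 3. Mice of both genotypes had received 25 µg of Alternaria alternata, a mould whose allergens evoke type 2 lung inflammation, 3 times over 7 days, so no unchallenged group is part of the comparison. The labels give neither the allele behind the knockout nor the age or sex of the mice, and they do not say that the loss of Rbm3 is limited to ILCs. Nor do they say that each replicate is a separate animal. The p-values therefore cover only the spread among these 6 samples, part of which may be technical. The series title puts RBM3 as a brake on ILCs and on inflammation of the lung, and comparing the genotypes asks about the ILC side of it at the level of transcripts.

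Before a cell copies its DNA, the origin recognition complex, CDC6 and CDT1 load the ring-shaped MCM2-7 helicase onto origins, a step called licensing. In S phase CDC45, the GINS complex and MCM10 turn the loaded ring into a running helicase, primase and the polymerases copy both strands behind it, and the sliding clamp PCNA and its loader RFC keep the polymerases on the template. Deoxynucleotides come from ribonucleotide reductase, thymidylate synthase and thymidine kinase, and histones are set down on the new DNA by CAF-1 and ASF1. Many of these genes are transcribed under E2F factors as cells leave G1, so their transcripts are widely used as signs of dividing cells, and ILC2s, the ILCs that make type 2 cytokines, are known to divide in the challenged lung.

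The shallowest library, RBM3KO replicate 3, held 7498247 counts and the deepest, WT replicate 3, 25068137, and the lowest count of any listed gene in any library was 15. Rbm3 stood at 269.7, 314 and 293 CPM in the WT libraries and 26.5, 22.4 and 31.6 CPM in the RBM3KO ones, each library matching its label (log2 fold change -3.45, SE 0.15, edgeR adjusted p = 2.23e-06). CPM are counts scaled to the library total by edgeR's cpm with TMM factors, the standard error (SE) belongs to the log2 fold change, and log2 fold changes are RBM3KO minus WT. A gene is said to have fallen or risen where its adjusted p in edgeR's quasi-likelihood test, taken over all 11382 tested genes, was under 0.05. The cells carried the markers of their label, with Gata3 at 639.9 ± 54 CPM in WT against 695 ± 141 CPM in RBM3KO and Thy1 at 104 ± 14.6 and 103 ± 7.17 CPM (SD, n = 3 each). None of 10 ILC and ILC2 markers passed the edgeR test, 7 were higher at an unadjusted p under 0.05, and DESeq2 called 4 higher. For 8 of the 10 every RBM3KO library lay above every WT library. The shares of all tested genes that were higher by these measures were not taken, so these counts have no background beside them. Of the 10 estimates 9 were above 0, from -0.02 for Thy1 to 0.68 for Areg (SE 0.19, edgeR adjusted p = 0.146). The 10 summed to 5849.8 ± 597 CPM of the total count in WT and 7410.8 ± 247 CPM in RBM3KO (SD, n = 3 each). Of the T cell genes, Lat was at 260 to 346 CPM and Cd3g at 145 to 313 CPM. Cd3d and Cd3e were at most 32.8 CPM and Cd4, Cd8a and Cd8b1 at most 11.9 CPM in any library. Cd3d, Cd3e, Cd8a and Cd8b1 were each highest in WT replicate 2.

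Replication genes of most roles were among those that fell in RBM3KO. In the edgeR test 12 of the 45 fell, which is 26.7% of them, against 0.993% of all tested genes. They were Mcm3, Mcm5, Mcm7, Cdc45, Pcna, Rfc5, Rpa2, Rrm2, Tyms, Tk1, Asf1b and Uhrf1. With edgeR 0 of the 45 rose, where 0.246% of all tested genes did, and 0 were higher at an unadjusted p under 0.05 or in the DESeq2 test. The estimate was below 0 for 44 of the 45 and above 0 for Orc2, whereas 49.1% of all tested genes had an estimate below 0. The median log2 fold change was -0.60 over the list, with a range from -1.39 to 0.20, and 0.01 over all tested genes. At an unadjusted p under 0.05, 35 of the 45 were lower, against 6.86% of all tested genes. For 34 of the 45, or 75.6%, every RBM3KO library lay below every WT library, a pattern found in 10.5% of all tested genes. In bulk RNA, fewer dividing cells and less of these transcripts per cell cannot be told apart.

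**Figure D1:**
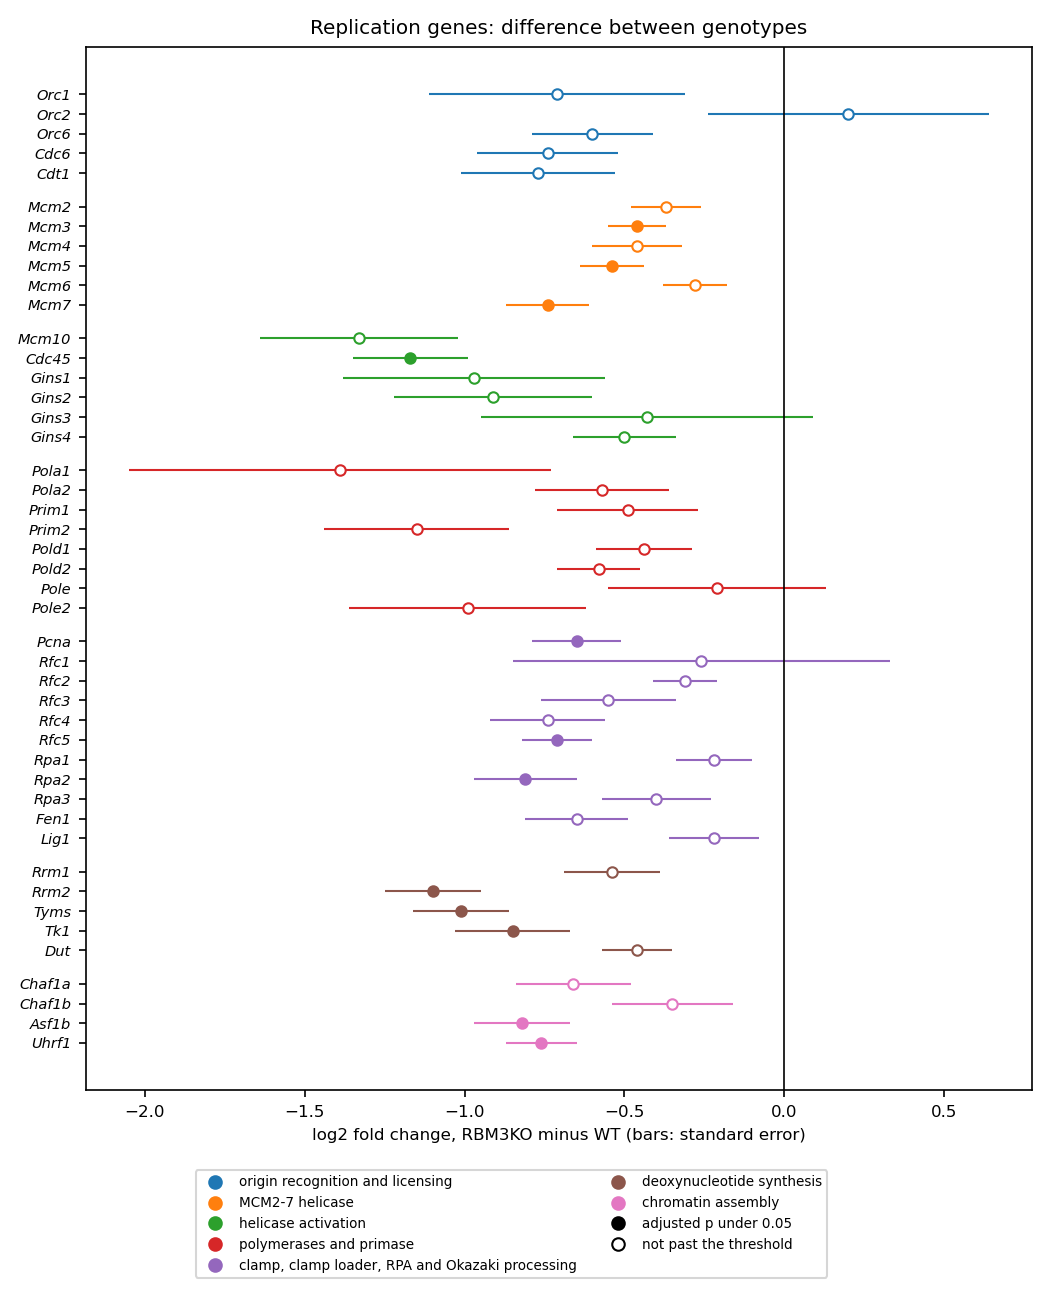
Log2 fold change (RBM3KO minus WT) of each of the 45 replication genes, grouped by role, with bars for 1 SE and filled points for genes with an edgeR adjusted p under 0.05. All points but that of Orc2 lie left of 0, and the 12 filled points run from -1.17 (Cdc45) to -0.46 (Mcm3).

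Summed over the 45 genes, the level was 8269.0, 7220.0 and 7200.7 CPM of the total count in WT replicates 1, 2 and 3 and 4860.7, 4957.0 and 5078.9 CPM in RBM3KO replicates 1, 2 and 3. The RBM3KO libraries stood close together and below all WT libraries, and WT replicate 1 was the highest. The mean sum was 7563.2 ± 611 CPM in WT and 4965.5 ± 109 CPM in RBM3KO (SD, n = 3 each), or 65.7% of the WT sum. Against the WT mean of each gene, the median gene of the list lay at a log2 difference of 0.12, -0.08 and -0.04 in WT replicates 1 to 3 and of -0.61, -0.65 and -0.51 in RBM3KO replicates 1 to 3. WT replicate 1 held the highest WT value for 28 of the 45 genes, and WT replicate 2 the lowest for 22.

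**Figure D2:**
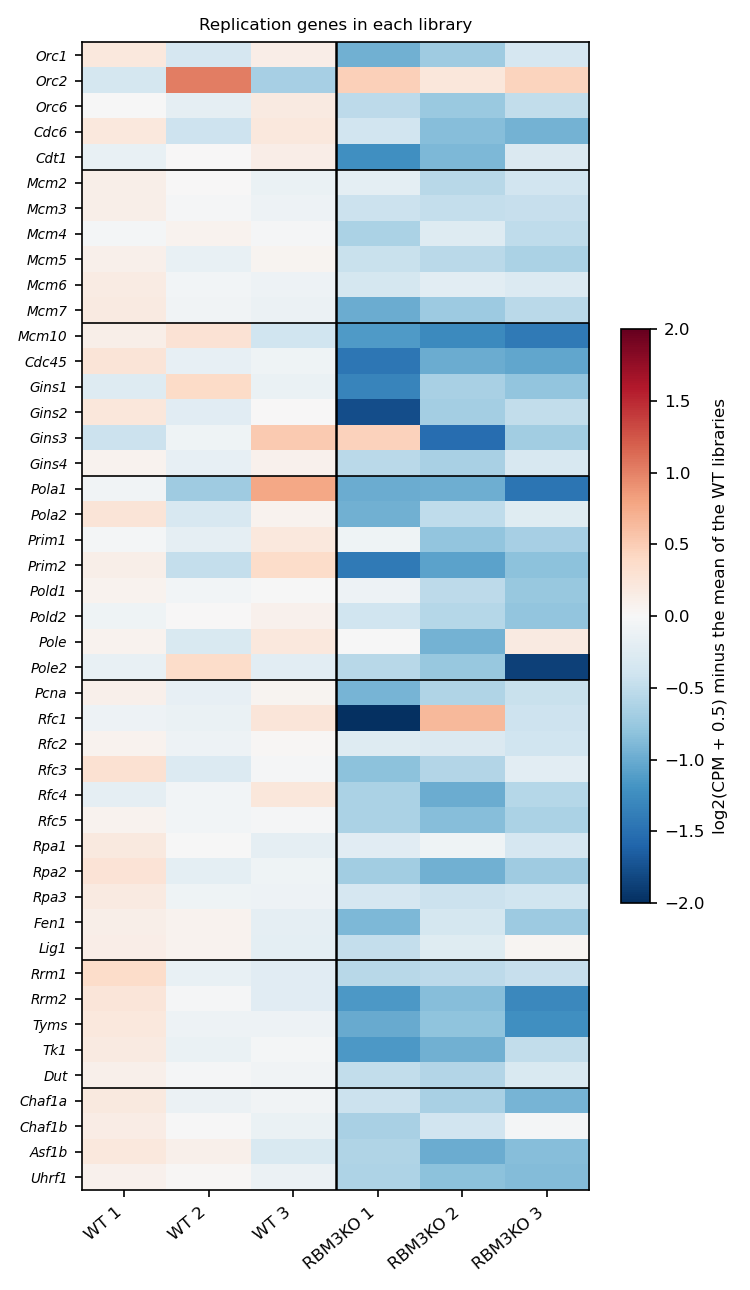
Heat map of the 45 replication genes (rows, by role) in the 6 libraries (columns), coloured by log2(CPM + 0.5) minus the mean of the 3 WT libraries. The RBM3KO columns are below the WT mean for 43, 43 and 42 of the genes in replicates 1, 2 and 3, and WT replicate 1 is below it for 12.

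The number of calls moved with each library left out. Without WT replicate 1 edgeR called 0 of the 45 lower (0.0844% of all tested genes were), although 29 still had an unadjusted p under 0.05. Without WT replicate 2 the 4 genes Mcm5, Cdc45, Rrm2 and Tyms were called lower, against 0.399% of all tested genes. Without WT replicate 3 there were 7, against 0.406%, with Mcm3, Mcm5, Pcna, Rpa2 and Tk1 lost. Without RBM3KO replicate 1 there were 6, against 0.546%, and without RBM3KO replicate 2 Rrm2 and Tyms were left, against 0.246%. Without RBM3KO replicate 3 there were 8, against 0.708%, with Mcm3, Mcm5, Rpa2 and Asf1b lost. The median log2 fold change of the list stayed between -0.69 and -0.60 in these 6 fits, and between 43 and 45 of the estimates were below 0. DESeq2 on all libraries called 20 of the 45 lower, adding Mcm10, Prim2, Pold2, Rfc4, Fen1, Rrm1, Dut and Chaf1a, against 2.28% of all tested genes.

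Calls were found among the members with more reads. Of the 12 genes with a mean under 50 CPM, 0 passed, and their log2 fold changes had a median of -0.81 and a median SE of 0.39. Of the 20 genes between 50 and 200 CPM, 6 passed, at a median of -0.66 and a median SE of 0.17. Of the 13 genes at 200 CPM or more, 6 passed, at a median of -0.46 and a median SE of 0.12. Among all tested genes, 0.548%, 1.87% and 2% fell in the same bands. The lowest mean among the members that passed was the 75.8 CPM of Cdc45, so a miss among scarcer members does not show that they did not differ.

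**Figure D3:**
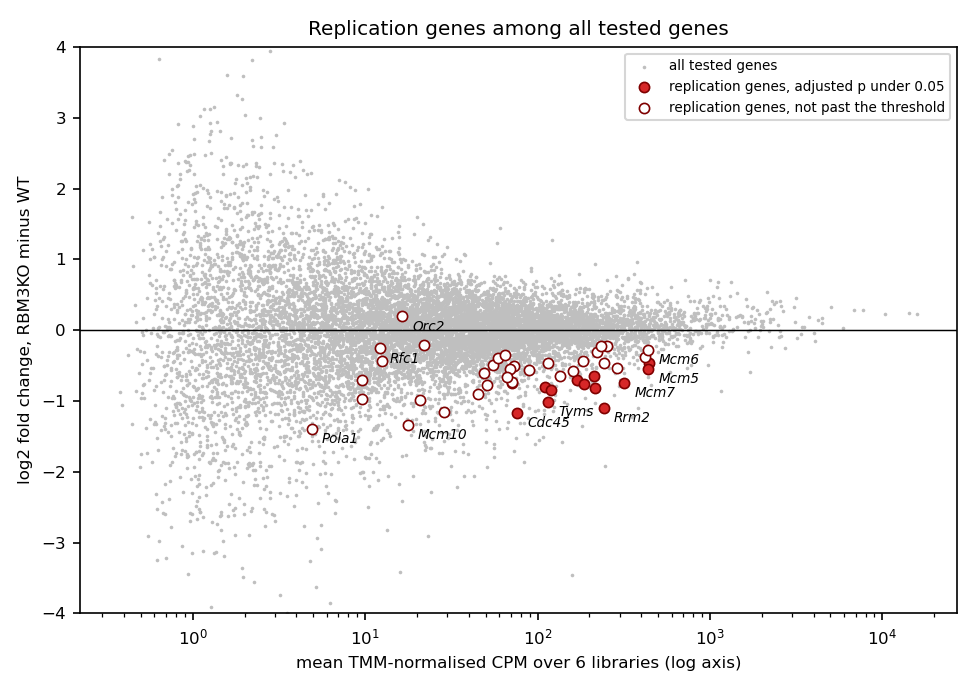
Log2 fold change (RBM3KO minus WT) against mean level in CPM (log axis) for all tested genes (grey) and the 45 replication genes (coloured, filled where the edgeR adjusted p was under 0.05). The replication genes have means between 4.89 and 443 CPM and 44 of the 45 lie below 0, and 43 genes of the table beyond a log2 fold change of 4 in either direction are not drawn.

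Licensing factors act first. With edgeR 0 of the 5 listed genes passed, 3 were lower at an unadjusted p under 0.05, DESeq2 called 0, and their median log2 fold change was -0.71. Cdc6, which encodes an ATPase that helps load the MCM ring, stood at 100.2, 65.1 and 101 CPM in WT and 66.2, 47.8 and 44.8 CPM in RBM3KO. WT replicate 2 lay just under RBM3KO replicate 1, so the genotypes overlapped (log2 fold change -0.74, SE 0.22, edgeR adjusted p = 0.168). Cdt1, whose product loads the ring and is destroyed once replication starts, stood at 58, 64.7 and 70.5 CPM in WT and 27.3, 34.2 and 52.5 CPM in RBM3KO. Its genotypes did not overlap, with RBM3KO replicate 3 nearest to WT (-0.77, SE 0.24, edgeR adjusted p = 0.196). Further subunits of the origin recognition complex did not pass either. Orc6 was at 59.3 ± 7.61 CPM in WT against 39.2 ± 3.72 CPM in RBM3KO, and Orc1 at 11.9 ± 2.39 and 7.31 ± 1.7 CPM (SD, n = 3 each). Orc2, another subunit of that complex, stood at 10.3, 27.4 and 8.18 CPM in WT and 18.7, 15.7 and 18.2 CPM in RBM3KO. Only WT replicate 2 of its WT libraries was above the RBM3KO libraries, and the estimate of 0.20 had an SE of 0.44.

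The MCM2-7 ring is the helicase that opens the DNA duplex. Its 6 genes summed to 2551.7 ± 194 CPM of the total count in WT and 1789.0 ± 22.1 CPM in RBM3KO (SD, n = 3 each), 70.1% of the WT sum, and Mcm3, Mcm5 and Mcm7 passed the test. For all 6, every RBM3KO library lay below every WT library. Mcm7 (chromosome 5, 138164583 to 138172422, minus strand, mm10) stood at 450.0, 375 and 366 CPM in the WT libraries and 199.5, 239.9 and 272 CPM in the RBM3KO libraries. WT replicate 1 was the highest and RBM3KO replicate 1 the lowest, with a gap between the genotypes (log2 fold change -0.74, SE 0.13, edgeR adjusted p = 0.0267). Mcm5 (chromosome 8, 75109569 to 75128439, plus strand) stood at 555, 465 and 534 CPM in WT and 377, 354 and 334 CPM in RBM3KO. The RBM3KO libraries were close to each other and under all WT libraries (-0.54, SE 0.10, edgeR adjusted p = 0.0344). Mcm3 (chromosome 1, 20802968 to 20820312, minus strand) stood at 556, 504 and 479 CPM in WT and 379.5, 368 and 371 CPM in RBM3KO. Its RBM3KO libraries had a coefficient of variation of 1.61%, and all were under the lowest WT library (-0.46, SE 0.09, edgeR adjusted p = 0.0393). The remaining subunits Mcm2, Mcm4 and Mcm6 had estimates of -0.37, -0.46 and -0.28 and did not pass. Mcm6 was at 478 ± 49.6 CPM in WT against 394 ± 19.7 CPM in RBM3KO (SD, n = 3 each). The Mcm3 call was lost whichever of the 6 libraries was left out, at estimates between -0.51 and -0.40.

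The promoters of Mcm3, Mcm5, Mcm6 and Mcm7 hold letters of the kind that E2F factors are known to bind, the Mcm2 promoter holds none of those searched, and Mcm4 had no promoter entry. TTTCGCGC, TTTGGCGC, TTTCCCGC and TTTGCCGC were searched on both strands of RefSeq promoters (GRCm38.p6, the assembly of mm10), from 250 bases before to 50 after each start site, 300 bases in all, and overlapping matches were merged. Of the 45 genes, 38 had a promoter entry and 14 of these, or 36.8%, held a match, against 4.77% of the 8950 tested genes with an entry. Counted per promoter, 31.1% of the 45 promoter windows of these genes held one, against 3.95% of the 11410 promoters of tested genes. Over all 32851 promoters of the same length, those of genes not tested included, it was 2.3%. The share was 4 of 12 among the genes that fell and 10 of 26 among those that did not pass. The difference was not tested, and the calls also depended on the level of a gene. A match is a description of letters, not a bound site. Mcm3, Mcm5 and Mcm7 are shown because they passed the test and hold matches, which are in capitals, each sequence being on the strand of its gene and read 5′ to 3′. The Mcm5 stretch is the 250 bases before the start site (chr8:75109259-75109508, plus strand), with a run of 12 bases from 153 to 142 bases before the start in which 2 matches overlap. Those of Mcm3 (chr1:20820266-20820295, minus strand) and Mcm7 (chr5:138172030-138172059 and chr5:138171849-138171878, minus strand) are 30 bases around matches that lie in annotated exons. The annotated Mcm7 gene begins upstream of the RefSeq start used, at 138172422, so its stretch before that start lies inside the gene. Another Mcm7 window (chr5:138171217-138171516) holds no match.
Mcm5: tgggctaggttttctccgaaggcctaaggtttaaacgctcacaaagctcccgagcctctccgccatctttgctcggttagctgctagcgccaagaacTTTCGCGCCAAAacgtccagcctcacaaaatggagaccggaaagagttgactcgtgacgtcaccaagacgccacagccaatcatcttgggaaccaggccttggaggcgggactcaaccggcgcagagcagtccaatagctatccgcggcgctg
Mcm3: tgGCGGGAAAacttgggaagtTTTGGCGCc
Mcm7, before the start: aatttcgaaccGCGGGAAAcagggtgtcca
Mcm7, after the start: gggtgacgacgTTTCGCGCcaatttcggtt

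**Figure D4:**
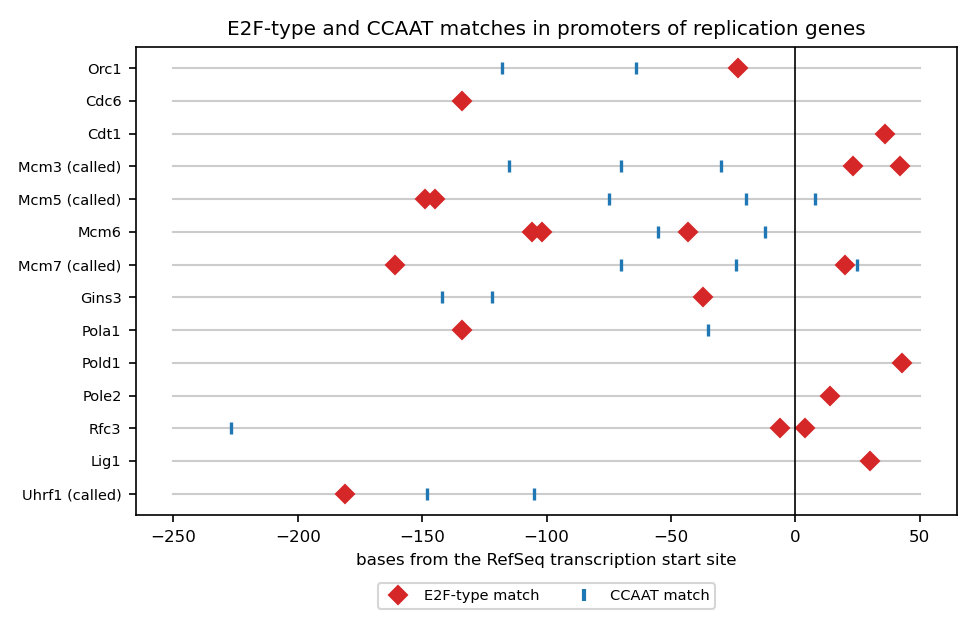
Positions of E2F-type and CCAAT matches in the RefSeq promoters of the replication genes, in bases from the start site, with 1 row per promoter that holds an E2F-type match. Of the 14 genes with such a match, 4 passed the edgeR test (Mcm3, Mcm5, Mcm7 and Uhrf1), and the matches stand on both sides of the start site.

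CCAAT, the letters bound by NF-Y, occurred in the promoters of 25 of the 38 genes (65.8%) and of 43.1% of tested genes. TTTGAA and TTCGAA, letters of the cell cycle homology region that marks many mitotic genes, occurred in 8 of the 38 (21.1%) and in 16.5% of tested genes. These searches covered both strands of the same windows.

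Helicase activation was the role with the lowest median, at a log2 fold change of -0.94 over 6 genes, of which 1 passed. Cdc45 (chromosome 16, 18780447 to 18811987, minus strand), whose product joins MCM2-7 and GINS in the running helicase, stood at 124, 92.2 and 97.9 CPM in WT and 37.7, 51.8 and 50.5 CPM in RBM3KO. No RBM3KO library came near the WT libraries, and the fitted level was 44.5% of WT (log2 fold change -1.17, SE 0.18, edgeR adjusted p = 0.016). Mcm10, which encodes a scaffold of the helicase, stood at 26.9, 30.4 and 18.6 CPM in WT and 11.1, 9.91 and 9.02 CPM in RBM3KO. The genotypes did not overlap and the estimate was larger than that of Cdc45, but at this level it missed the threshold (-1.33, SE 0.31, edgeR adjusted p = 0.0781). The GINS genes encode a complex of 4 subunits, and none of them passed, with Gins1 at -0.97 (SE 0.41), Gins2 at -0.91 (SE 0.31), Gins3 at -0.43 (SE 0.52) and Gins4 at -0.50 (SE 0.16). All but Gins3 had every RBM3KO library below every WT library. Gins3 was at 4.48 to 19.1 CPM in RBM3KO, with replicate 1 just under the highest WT library. Of the Gins2 exonic bases 70.7% also belong to Gse1 on the opposite strand, and reads of this kind of library do not tell strands apart, so its value is uncertain.

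Polymerases and primase synthesise the primers and the new strands. With edgeR 0 of the 8 genes passed, 5 were lower at an unadjusted p under 0.05, DESeq2 called 2 (Prim2 and Pold2), and all 8 estimates were below 0 with a median of -0.57. Pold2, which encodes an accessory subunit of polymerase delta, stood at 180.2, 193 and 203 CPM in WT and 146, 129 and 111 CPM in RBM3KO. Its genotypes did not overlap, and it lay just outside the threshold (log2 fold change -0.58, SE 0.13, edgeR adjusted p = 0.0596). Pold1, the catalytic subunit of the same polymerase, stood at 223, 203 and 210.3 CPM in WT and 197, 147 and 126 CPM in RBM3KO. RBM3KO replicate 1 came close to the WT libraries, and the spread in RBM3KO was wide (-0.44, SE 0.15, edgeR adjusted p = 0.253). Of the primase genes, Prim2 was at 39.4 ± 11.2 CPM in WT against 17.8 ± 3.76 CPM in RBM3KO and Prim1 at 64.4 ± 9.16 and 45.8 ± 12.7 CPM (SD, n = 3 each). Polymerase alpha starts each fragment, and its genes Pola1 and Pola2 had estimates of -1.39 (SE 0.66) and -0.57 (SE 0.21). Pola1 was the scarcest member, at 7.1 ± 3.91 CPM in WT against 2.69 ± 0.58 CPM in RBM3KO. Polymerase epsilon, which copies the leading strand, had Pole at -0.21 (SE 0.34) and Pole2 at -0.99 (SE 0.37).

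The clamp, its loader, the single-strand binding protein RPA and the enzymes that join Okazaki fragments made up 11 genes, of which Pcna, Rfc5 and Rpa2 fell and 8 did not pass. Pcna (chromosome 2, 132249162 to 132253314, minus strand), the sliding clamp, stood at 277, 232 and 269.8 CPM in WT and 135, 171 and 189 CPM in RBM3KO. All RBM3KO libraries were below all WT libraries, and the call was the closest to the threshold of the 12 (log2 fold change -0.65, SE 0.14, edgeR adjusted p = 0.0499). Rfc5 (chromosome 5, 117378103 to 117389047, minus strand), a subunit of the clamp loader, stood at 222, 203 and 207 CPM in WT and 135, 116 and 136 CPM in RBM3KO. Both genotypes were tight and far apart (-0.71, SE 0.11, edgeR adjusted p = 0.016). Rpa2 (chromosome 4, 132768332 to 132778752, plus strand), the middle subunit of RPA, stood at 169, 121 and 132 CPM in WT and 86, 71.1 and 84.5 CPM in RBM3KO. WT replicate 1 was well above the other two WT libraries, which were still above all RBM3KO libraries (-0.81, SE 0.16, edgeR adjusted p = 0.0393). Its call was lost whichever of the 6 libraries was left out, at estimates between -0.90 and -0.65.

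The other subunits of these complexes did not pass, and differences between genes were not tested. Rfc1, Rfc2, Rfc3 and Rfc4 had log2 fold changes of -0.26 (SE 0.59), -0.31 (SE 0.10), -0.55 (SE 0.21) and -0.74 (SE 0.18). Rfc4, another loader subunit, stood at 78.2, 85.3 and 104 CPM in WT and 56.8, 44.3 and 59.8 CPM in RBM3KO, without overlap, and missed the threshold (edgeR adjusted p = 0.0928). Rfc1, the large subunit, varied most, with 2.67, 20.8 and 9.69 CPM in the RBM3KO libraries around WT values of 11.9 to 15.6 CPM. Rpa1, which carries the main DNA-binding domains, was at 271 ± 35.2 CPM in WT against 233 ± 20.7 CPM in RBM3KO, and Rpa3 at 67.3 ± 7.84 and 51.2 ± 1.71 CPM (SD, n = 3 each). Fen1, the nuclease that trims Okazaki fragments, stood at 177, 172 and 144 CPM in WT and 87.8, 128 and 98.3 CPM in RBM3KO. Its genotypes did not overlap (-0.65, SE 0.16, edgeR adjusted p = 0.089), but 78.8% of its exonic bases are shared with Gm10143 on the opposite strand. Lig1, the ligase that seals the fragments, was at 273, 263 and 218 CPM in WT and 179, 212 and 256 CPM in RBM3KO, where RBM3KO replicate 3 lay inside the WT range (-0.22, SE 0.14, edgeR adjusted p = 0.613).

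Deoxynucleotide supply included Rrm2, the gene with the lowest adjusted p of the list. Rrm2, Tyms and Tk1 of its 5 genes fell, all 5 were separated by genotype, and their sum was 1278.7 ± 188 CPM of the total count in WT and 741 ± 39.2 CPM in RBM3KO (SD, n = 3 each), 58% of the WT sum. Rrm2 (chromosome 12, 24708241 to 24714146, plus strand), the regulated small subunit of ribonucleotide reductase, stood at 387, 323 and 278 CPM in WT and 147, 181 and 133 CPM in RBM3KO. The highest RBM3KO library was far below the lowest WT library, and the fitted level was 46.7% of WT (log2 fold change -1.10, SE 0.15, edgeR adjusted p = 0.00812). Tyms (chromosome 5, 30058202 to 30073617, minus strand), which makes thymidylate, stood at 177, 143 and 143 CPM in WT and 76.4, 87.6 and 65.5 CPM in RBM3KO. Again no library of one genotype reached the other, and the fitted level was 49.7% of WT (-1.01, SE 0.15, edgeR adjusted p = 0.0117). Tk1 (chromosome 11, 117815526 to 117826092, minus strand), the kinase that salvages thymidine, stood at 175, 140.1 and 149.6 CPM in WT and 69.5, 79.2 and 109 CPM in RBM3KO. RBM3KO replicate 3 was the nearest to WT (-0.85, SE 0.18, edgeR adjusted p = 0.0461). Rrm2 and Tyms kept their calls in 15 of 16 alternative fits and lost them without WT replicate 1, at edgeR adjusted p = 0.0635 and 0.0943. Tk1 kept its call in 7 of the 16.

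The other genes of nucleotide supply that are members did not pass. Rrm1, the large subunit of the reductase, stood at 433, 303 and 286 CPM in WT and 228, 232 and 243 CPM in RBM3KO. WT replicate 1 was far above the other WT libraries, and the RBM3KO libraries were tight and below all of them (-0.54, SE 0.15, edgeR adjusted p = 0.135). Dut, which removes dUTP, stood at 301, 274 and 265 CPM in WT and 199, 185 and 226 CPM in RBM3KO, again without overlap (-0.46, SE 0.11, edgeR adjusted p = 0.0815). The Rrm2 promoter is shown because Rrm2 had the lowest adjusted p of the 45 and none of the E2F-type letters searched, which says only that these letters are not in its window. It covers 237 bases that end 14 bases before the RefSeq start (chr12:24708004-24708240, plus strand), before the first annotated exon, and it is printed without capitals.
Rrm2: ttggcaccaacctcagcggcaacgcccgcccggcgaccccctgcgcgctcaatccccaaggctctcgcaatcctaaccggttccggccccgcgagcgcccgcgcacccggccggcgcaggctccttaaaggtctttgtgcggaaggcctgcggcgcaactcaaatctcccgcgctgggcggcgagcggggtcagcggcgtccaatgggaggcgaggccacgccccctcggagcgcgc

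Chromatin assembly behind the fork was represented by 4 genes, of which Asf1b and Uhrf1 fell. Asf1b (chromosome 8, 83955507 to 83970197, plus strand), a chaperone that hands histones H3 and H4 on for deposition, stood at 315, 291 and 219 CPM in WT and 179, 136 and 151 CPM in RBM3KO. WT replicate 3 was the lowest WT library and still above all RBM3KO libraries (log2 fold change -0.82, SE 0.15, edgeR adjusted p = 0.0344). Uhrf1 (chromosome 17, 56303321 to 56323486, plus strand), which brings the maintenance DNA methyltransferase to newly copied DNA, stood at 249, 239.9 and 218 CPM in WT and 153, 133 and 129 CPM in RBM3KO. Both genotypes were tight and did not overlap (-0.76, SE 0.11, edgeR adjusted p = 0.0117). Chaf1a and Chaf1b, subunits of CAF-1, did not pass, at 82.1 ± 9.95 against 51.8 ± 8.96 CPM and 72.6 ± 7.18 against 57.2 ± 12.2 CPM (SD, n = 3 each). For Chaf1b, RBM3KO replicate 3 lay inside the WT range. Of the Chaf1a exonic bases 33.6% are shared with Ubxn6 on the opposite strand. The Uhrf1 promoter is shown because it holds an E2F-type match, in capitals from 185 to 178 bases before a RefSeq start. It covers the 250 bases before that start (chr17:56304063-56304312, plus strand), and no annotated exon overlaps them, although a longer Uhrf1 transcript starts upstream.
Uhrf1: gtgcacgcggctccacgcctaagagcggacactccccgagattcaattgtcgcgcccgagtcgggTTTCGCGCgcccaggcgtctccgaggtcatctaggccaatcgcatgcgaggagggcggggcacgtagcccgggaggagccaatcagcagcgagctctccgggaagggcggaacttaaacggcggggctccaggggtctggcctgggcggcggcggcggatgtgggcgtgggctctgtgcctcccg

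**Figure D5:**
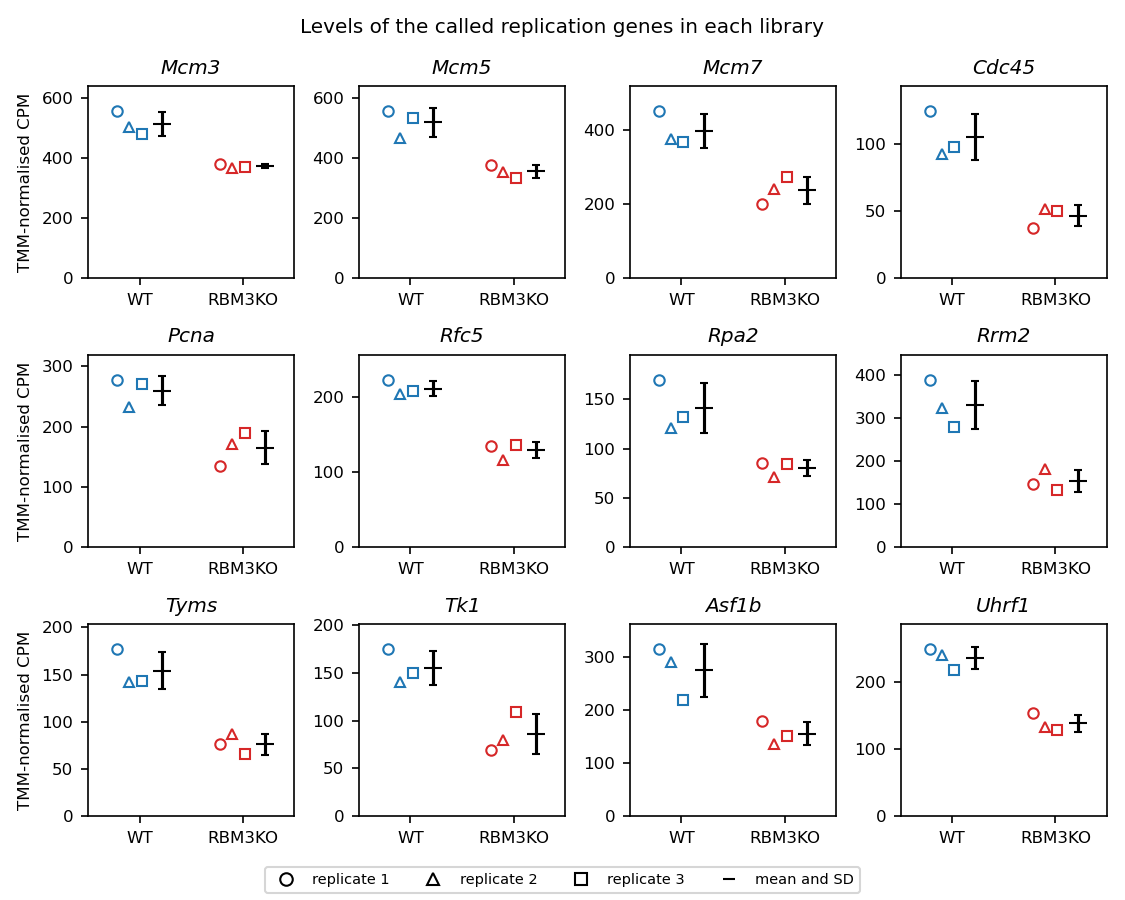
Level in CPM after TMM scaling of the 12 replication genes that fell, in each of the 3 WT and 3 RBM3KO libraries (points), with the mean and SD of each genotype. In every panel the 3 RBM3KO points lie below the 3 WT points, from Rrm2 (387, 323 and 278 against 147, 181 and 133 CPM) to Mcm3 (556, 504 and 479 against 379.5, 368 and 371 CPM).

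Levels of different genes can be compared per length of transcript, as CPM per kilobase. On that scale Pcna at 171 and Mcm3 at 169 were the most abundant in WT, followed by Asf1b and Mcm5 at 154 and 153, and Pola1 at 1.33 was the scarcest. In RBM3KO these 5 stood at 109, 123, 86.8, 105 and 0.503 CPM per kilobase. Mcm7 was at 134 CPM per kilobase in WT and 80.1 in RBM3KO, below Mcm6 (109.8 in WT and 90.6 in RBM3KO) in the knockout and above it in WT. The 45 genes lie on 14 chromosomes. Of the 12 genes that fell, Mcm7, Cdc45, Rfc5 and Tk1 share exonic bases with a gene on the opposite strand, at most 15.4% of them (Rfc5 with Wsb2, which did not pass at a log2 fold change of -0.73, SE 0.34, edgeR adjusted p = 0.415), and Pcna and Tyms have named pseudogenes that may take some of their reads.

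Genes around the replication fork outside the list had lower counts of calls, but most estimates in each of these lists were also below 0. Calls also depended on the level of a gene, and the lists were not matched for level. Among 31 tested other replication factors, such as the remaining origin and polymerase subunits, edgeR called 0, 12 were lower at an unadjusted p under 0.05, and DESeq2 called 4 lower, with a median of -0.52. Of these 31 estimates 28 were below 0. For 14 of the 31 every RBM3KO library lay below every WT library, against 10.5% of all tested genes. Mcmbp, whose product binds MCM proteins, was at 149.7 ± 13.4 CPM in WT against 89.2 ± 18.5 CPM in RBM3KO, and Pole4, a small subunit of polymerase epsilon, at 219 ± 4.32 and 208 ± 11.6 CPM (SD, n = 3 each). Among 25 other nucleotide synthesis enzymes edgeR called 0, 9 were lower at an unadjusted p under 0.05, and DESeq2 called 2, with a median of -0.25. The nucleoside diphosphate kinases Nme1 and Nme2 were its most abundant genes, with estimates of -0.16 (SE 0.09) and -0.09 (SE 0.09). Of 12 histone chaperones and related chromatin genes 1 fell, Suv39h1, a histone H3 methyltransferase, from 82.5 ± 12.1 to 45.6 ± 2.52 CPM (-0.85, SE 0.17, edgeR adjusted p = 0.0393). That call was lost with the replicate block (edgeR adjusted p = 0.0554) and whichever library was left out (0.0827 to 0.229). Of 9 tested checkpoint genes edgeR and DESeq2 called 0 and 0 had an unadjusted p under 0.05, with Rad1, a subunit of a checkpoint clamp, at -0.29 (SE 0.25) and Wee1, a kinase that restrains CDK1, at 0.03 (SE 0.29).

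Of 19 genes for E2F factors, their partners and related regulators, 2 fell, with a median of -0.38. At an unadjusted p under 0.05, 7 were lower and 1 was higher, and DESeq2 called 4 lower. Of the 19 estimates 16 were below 0 and 3 above. Those above were E2f2 at 0.12 (SE 0.27), Lin54 at 0.29 (SE 0.43) and Rbl2 at 0.40 (SE 0.14, edgeR adjusted p = 0.242). E2f1, an activator of replication genes, stood at 109, 73.1 and 106 CPM in WT and 22, 37.9 and 50.9 CPM in RBM3KO. The genotypes did not overlap (log2 fold change -1.39, SE 0.28, edgeR adjusted p = 0.0441). Tfdp1, the dimer partner of E2F factors, stood at 126, 119 and 117 CPM in WT and 75.9, 77.7 and 70.4 CPM in RBM3KO. Both genotypes were tight and apart (-0.69, SE 0.13, edgeR adjusted p = 0.0339). Tfdp1 lost its call whichever library was left out, at edgeR adjusted p between 0.0656 and 0.184. E2f1 kept its call without RBM3KO replicate 3 and lost it without each of the others, at edgeR adjusted p between 0.0728 and 0.215, and also in the fit that is not robust (0.0504) and after removal of a GC trend (0.0569).

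Mitotic genes, expressed later in the cycle, had a lower median than the replication genes. Of 20 such genes 10 fell, the median was -1.25, and their sum in RBM3KO was 41% of that in WT, where that of the 45 replication genes was 65.7%. Plk1, Aurka and Aurkb, kinases of mitosis, had log2 fold changes of -1.67 (SE 0.18), -1.74 (SE 0.34) and -1.79 (SE 0.32). The difference between the lists was not tested. With a library left out, 3 (without WT replicate 1) to 7 of the 20 mitotic genes were called lower, with 6 without RBM3KO replicate 2.

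Markers of other cells and of RNA quality were also compared, and only 1 of them passed the edgeR test. The 7 B and plasma cell markers in the table summed to 63.8, 83.5 and 90.1 CPM of the total count in WT and 42.3, 40.5 and 38.3 CPM in RBM3KO, with 5 of them at 0 in RBM3KO replicates 1 and 3. With edgeR 0 of 6 tested passed, 2 were lower at an unadjusted p under 0.05, and DESeq2 called 2. The 15 markers of macrophages, monocytes and dendritic cells summed to between 2675.0 and 3709.9 CPM in WT and between 2057.5 and 2475.8 CPM in RBM3KO. Most of that sum was Cd74 and H2-Ab1, Csf1r was at most 2.88 CPM in any library, and 1 of 13 tested genes fell, Tyrobp, from 49.8 ± 7.84 to 19.5 ± 3.9 CPM (SD, n = 3 each). Of the 13, 3 were lower at an unadjusted p under 0.05, Tyrobp included, and DESeq2 called 2 lower. Malat1, a nuclear RNA, stood at 260.0, 206 and 302 CPM in WT and 443, 327 and 731 CPM in RBM3KO (edgeR adjusted p = 0.109). The part of these in the lower replication transcripts was not tested. Epithelial markers summed to 274 CPM in RBM3KO replicate 3 and at most 99.8 CPM in the other libraries, and without that library 8 of the 45 replication genes were called lower at a median log2 fold change of -0.64.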

How the data were processed

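The deposited table, made by the authors, holds unnormalised read counts by gene symbol in 1 column for each sample. Per the submitters' processing notes, STAR 2.6.1c, Bowtie 1.0.0, featureCounts 1.6.5 and mm10 are named without a role or an order. The annotation, strand setting and read filters are not given in these sources. Per the labels' protocols, polyA RNA was amplified by Smart-seq2 and libraries were made with Nextera XT, which in standard form mark neither strand nor molecules, so opposite-strand overlaps cannot be separated and PCR copies are counted.

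Total counts were 13339633, 16747682 and 25068137 in WT replicates 1 to 3 and 15843924, 16936670 and 7498247 in RBM3KO replicates 1 to 3. A count of 0 allows up to 3 counts, or 0.12 to 0.4 CPM, counting error only. No pair of libraries was alike within sampling noise (lowest chi-square per degree of freedom 21.5). Genes were filtered with filterByExpr, scaled by TMM and compared over all 6 libraries with edgeR 4.0.16's robust quasi-likelihood test in R 4.3.3, adjusted by Benjamini-Hochberg with a threshold of 0.05. The SE is the log2 fold change divided by the square root of F. An exact permutation of 3 against 3 cannot give a two-sided p under 0.1. Summed levels are CPM without TMM. The fit was tested on simulated data. Symbols were matched to GENCODE M21, where 13038 of 14416 matched directly, 1199 by an older symbol and 179 did not.

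The 45 genes, the gene lists and the naming rule were chosen with earlier results of these data known. The rule names, in each role, every gene past the threshold or, with none, the 2 most abundant, those with an adjusted p from 0.05 to 0.1, and up to 3 called or 2 most abundant genes of each list of related genes. Other members, marker genes and the genes of the E2F list with estimates above 0 were described after their values were seen. Alternatives were DESeq2 size factors, upper-quartile scaling, no filter, at least 10 CPM in 3 libraries, DESeq2 1.42.0, limma-voom (limma 3.58.1), a fit that is not robust, a replicate block, equal depth, removal of a GC trend, and each library left out. The markers of granulocytes and mast cells (24 against 18.5 CPM in sum), stroma and endothelium (59.3 against 66.6 CPM), T cells (509.9 against 603 CPM), epithelium (50.7 against 103 CPM) and erythroid cells and platelets (0.809 against 0.568 CPM) had 0 genes called by edgeR or DESeq2, and of the tested ones 1 T cell gene was higher and 0 of the rest differed at an unadjusted p under 0.05 in edgeR.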

Additional observations from a re-analysis of the deposited data

How the results depend on the processing

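The design has 3 libraries per genotype and no unchallenged mice, and genes with fewer reads had larger standard errors. With the 12 genes called lower as the base, other scalings, filters and fits gave 9 (upper-quartile scaling, replicate block), 10 (not robust), 11 (DESeq2 size factors, GC trend removed), 12 (equal depth), 14 (no filter, limma-voom), 15 (at least 10 CPM in 3 libraries) and 20 (DESeq2) genes, with Pcna, Mcm3 and Tk1 being the ones that were lost in any of these. Leaving out a library gave 0 to 8. Over all tested genes but Rbm3, the count in either direction was 141, 413 with DESeq2, 148 with the replicate block and 11 to 98 with a library left out. Of these, 113 were lower in the main fit, 260 with DESeq2 and 10 to 84 with a library left out. The median log2 fold change of the 45 genes was -0.66 with the replicate block and ran from -0.69 to -0.60 with a library left out. The count of genes without overlap was 32 to 34 with other scalings and filters, the 32 being of 43 tested with the 10 CPM filter. With a library left out it was 34 to 38. Fewer libraries make separation easier, so that range does not show stability. The share over all tested genes was taken in the main fit only. Within the list all 45 estimates, that of Orc2 included, were below 0 without WT replicate 1 or 3. Without RBM3KO replicate 1 or 2 it was 43 of them. Among the genes outside the list that the naming rule gave, the estimates of 2 changed sign. Rad1 ran from -0.47 to 0.02 and Wee1 from -0.20 to 0.33 with a library left out, neither passing the test. For both, the cause was not tested.

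The labels do not say that equal replicate numbers mark pairs. The correlations below cannot settle it, since deviations from a mean of 3 libraries constrain each other. Deviations from the genotype means correlated at r = 0.0555, 0.0574 and 0.00531 across genes for libraries with the same number, and not every library correlated best with its own number.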

Other observations

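Partner subunits of 1 complex can be set against each other within a library, since a ratio of their counts does not depend on scaling. The pairs below were chosen after the values of single genes had been seen, so they are a description without a test. Rrm2 over Rrm1, the subunits of ribonucleotide reductase, was 0.895, 1.07 and 0.974 in WT and 0.644, 0.78 and 0.546 in RBM3KO. Every RBM3KO ratio was below every WT ratio. Mcm7 over Mcm6, subunits of the helicase ring, was 0.841, 0.821 and 0.828 in WT and 0.533, 0.58 and 0.688 in RBM3KO, also without overlap. Rpa2 over Rpa1 was 0.55, 0.451 and 0.555 in WT and 0.373, 0.279 and 0.395 in RBM3KO, and Rfc5 over Rfc2 was 0.866, 0.891 and 0.834 in WT and 0.661, 0.58 and 0.736 in RBM3KO. Pold2 over Pold1 did overlap, at 0.807, 0.95 and 0.964 in WT and 0.74, 0.877 and 0.884 in RBM3KO. Each of the first 4 pairs sets a gene that passed the edgeR test against a partner that did not, so the choice of pairs fixed the direction of these ratios. Ratios of counts say nothing of the amounts of the proteins, and Mcm7, Rfc5 and Rfc2 share exonic bases with genes on the opposite strand.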
